A study of Mus musculus with 15 samples.

Results

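Mucins are large glycoproteins whose serine- and threonine-rich stretches carry dense O-linked sugars. Gel-forming mucins (Muc2, Muc5ac, Muc5b and Muc6) are stored in granules, secreted and make up mucus, while transmembrane mucins (Muc1, Muc3, Muc4, Muc13 and Muc20) coat the apical surface of epithelial cells. Normal pancreatic ducts make little Muc5ac, which is known to appear in early pancreatic neoplasia. The 9 mucin genes described here were taken by gene symbol from the array annotation, out of 37008 gene names, and were proposed after earlier results on the same arrays were known. They were chosen by their levels in cancer cells under stellate cell medium against control medium, so for the mucin genes these 2 comparisons are descriptions only.

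Gene expression was measured on 15 one-colour mouse arrays in 5 groups of 3. Mouse pancreatic cancer cells were kept for 24 h in medium conditioned by heterozygous stellate cells (KHT), in medium conditioned by wild-type stellate cells (KWT) or in control medium (KC). Pancreatic stellate cells, the retinoid-storing fibroblast-like cells of the pancreas, came from heterozygous mice (PSC HT) or wild-type mice (PSC WT) and were cultured for 2 weeks until activated. The heterozygous locus, the cancer cell line and the age of the mice are not given in the sources used here, nor is the origin of the replicates (separate mice, cultures or extracts). The p-values thus cover the spread among these arrays, which may be technical.

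Per array, 54.3% to 63.8% of spots read well above background and none was saturated. The 75th percentile of the processed signal ran between 913.4 and 1449.5. The arrays lay on 2 slides, each with arrays of every group. Of 12 stellate and fibroblast markers all 12 were well above background on every PSC array, against 3 to 6 on the cancer cell arrays, and 11 of 12 epithelial markers were well above background on every cancer cell array. On the PSC arrays 6 or 7 epithelial markers were, and 8 on PSC HT 3. That array stood apart: Cdh1, the epithelial cadherin, had a log2 level of -2.45 on it, against -7.70 and -7.65 on the other PSC HT arrays and -8.22 to -7.61 on the PSC WT arrays. In bulk RNA a larger share of one kind of cell and more transcript per cell cannot be told apart.

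Levels below are log2 of the processed signal relative to the 75th percentile of the same array, so a value of 0 is that percentile. They can be compared between groups for 1 probe, not between probes. A spot is called well above background by the scanner software. The 9 genes had 17 probes, all of 60 bases, and the probe with the highest mean over the 15 arrays stood for its gene. A fit took in a gene when every array of 1 or more of its groups read that probe well above background.

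The parts of the probes on which the main results rest are shown first, because they say which stretch of each transcript was read. The Muc5b, Muc5ac and Muc2 probes lie in the cluster of gel-forming mucin genes on chromosome 7, at chr7:149058931-149058990 for the brighter Muc5b probe, chr7:149058735-149058794 for the dimmer one, chr7:149004793-149004852 for Muc5ac and chr7:148940536-148940595 for Muc2. Muc4 was read on chromosome 16 at chr16:32782278-32782337 and Muc1 on chromosome 3 at chr3:89036007-89036974, all on the plus strand of build mm9. The 60 bases of the Muc1 probe cover 968 bases of genome, so the probe spans a splice junction, and it is shown whole. Of the others 30 bases are shown. Capitals mark AATAAA, the polyadenylation signal, which 9.77% of the 56605 probes hold and which usually lies near the end of a transcript.
Muc5b, brighter probe: tccctaagctgcAATAAAccctggcactgt
Muc5b, dimmer probe: tttggcctcattctctgtgagagcctgtgg
Muc5ac: ctgaatactgctgctgtcccaaccaaaagg
Muc2: ttgctttccgatAATAAActcaggcatagc
Muc4: catggtggccaaatatacagatggatgggt
Muc1: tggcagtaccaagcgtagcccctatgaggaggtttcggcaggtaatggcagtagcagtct
The longest run of bases that a probe of one mucin gene shared with a probe of another was 8, and it was 6 between Muc5ac and Muc5b.

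Among the gel-forming mucins, Muc5b and Muc5ac were lower in cancer cells under stellate cell medium of either genotype than under control medium, Muc2 was lower by less, and Muc6 was at a like level in all 3 groups. Muc5b had log2 levels of -3.58, -3.65 and -3.70 on the KHT arrays and -3.96, -3.83 and -4.43 on the KWT arrays, against -1.12, -1.21 and -1.50 on the KC arrays. Each of the 6 arrays in stellate cell medium lay below each control array. The difference was -2.37 ± 0.16 (log2, SE of the fit) for KHT against KC, or 5.17-fold lower, and -2.80 ± 0.16 for KWT against KC, or 6.98-fold lower. The KWT value was -2.06 with normexp background correction, a model-based subtraction of the local background, and -2.05 in the deposited series matrix. Muc5b encodes the gel-forming mucin of airway, salivary and gallbladder mucus.

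The second Muc5b probe was well above background on the 3 KC arrays, with log2 levels of -4.19, -4.71 and -4.81. On no KHT or KWT array was it well above background, with readings of -7.73 to -6.44 in KHT and -7.41 to -6.56 in KWT. The higher of each array's own reading and its lowest signal well above background gives a bound: this stretch of Muc5b was at least 1.83-fold lower in KHT and at least 1.97-fold lower in KWT than in KC. Both probes placed Muc5b below the controls.

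Muc5ac, the gel-forming mucin of gastric surface cells and airway goblet cells, read -0.50, -0.16 and -0.31 in KHT and -0.39, -0.51 and -0.85 in KWT, against 1.90, 1.69 and 1.51 in KC. The groups in stellate cell medium again lay wholly below the controls. The log2 difference was -2.02 ± 0.15 in KHT against KC, or 4.06-fold lower, and -2.28 ± 0.15 in KWT against KC, or 4.87-fold lower.

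Muc2, the mucin of intestinal goblet cells, was dim in all groups. Its log2 levels were -4.86, -4.71 and -4.53 in KHT and -4.45, -4.70 and -4.73 in KWT, against -4.01, -3.79 and -3.96 in KC. The 6 arrays in stellate cell medium lay below the controls here too, with differences of -0.78 ± 0.11 for KHT and -0.71 ± 0.11 for KWT. A second Muc2 probe, at chr7:148883009-148883068, was not well above background on any of the 15 arrays, so the Muc2 values rest on 1 probe.

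Muc6, the mucin of gastric gland cells, lies at the other end of the cluster and is read from the minus strand at chr7:148822365-148822424. It averaged -4.55 ± 0.28 in KHT, -4.31 ± 0.10 in KWT and -4.55 ± 0.16 in KC (SD, n = 3 each), and the 3 groups overlapped. The genes on either side of the cluster are Ap2a2, a subunit of the clathrin adaptor, and Tollip, an adaptor of Toll-like receptor signalling. Ap2a2 differed by 0.15 ± 0.09 in KHT and by 0.23 ± 0.09 in KWT against KC, and Tollip by -0.05 ± 0.11 in KHT and -0.03 ± 0.11 in KWT, with overlapping groups.

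**Figure D1:**
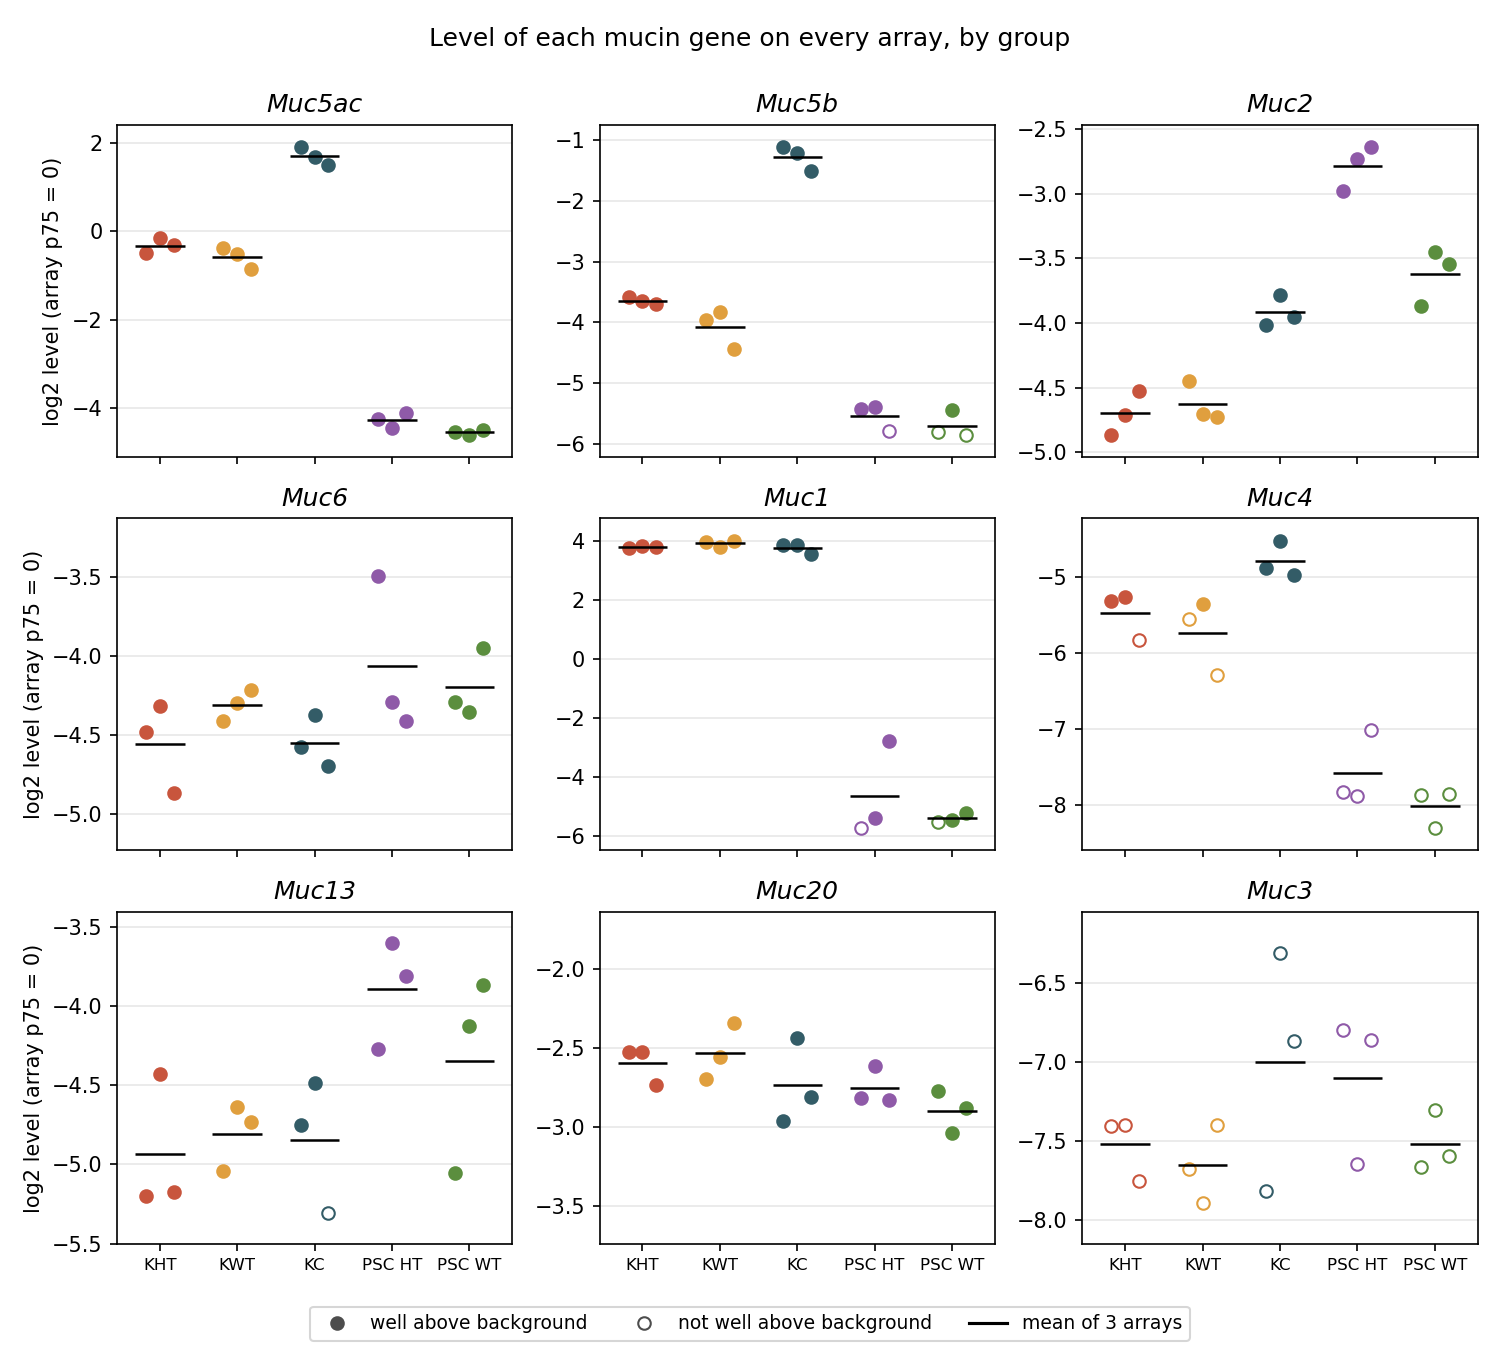
Log2 level (array 75th percentile = 0, vertical axes with their own ranges) of the probe that stands for each mucin gene on every array, by group. Filled points are well above background, open points are not, and bars are means of 3 arrays. The Muc5b, Muc5ac and Muc2 points of KHT and KWT all lie below those of KC, and Muc1 reads -2.77 on 1 PSC HT array against -5.72 to -5.21 on the other PSC arrays.

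Within each slide the Muc5b and Muc5ac differences were of like size. Muc5b differed by -2.33 on slide 1 and -2.44 on slide 2 in KHT against KC, and by -2.66 and -2.93 in KWT against KC. Muc5ac differed by -2.11 and -1.85 in KHT, and by -2.09 and -2.37 in KWT. Muc2 differed by -0.71 and -0.92 in KHT and by -0.46 and -0.93 in KWT. KC 2 and KHT 2 were the only arrays of their groups on slide 2, and KWT 1 the only KWT array on slide 1. On slide 2 KHT against KC is thus 1 array against 1. These comparisons chose the genes, so the values by slide are a description too.

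Of the transmembrane mucins, Muc4 had lower readings in stellate cell medium on the probe that stands for it, which did not reach the threshold in either comparison, and Muc1, Muc13 and Muc20 overlapped between all 3 groups. Muc4, a large transmembrane mucin that binds ErbB2, had log2 levels of -5.31, -5.27 and -5.84 in KHT and -5.56, -5.36 and -6.29 in KWT, against -4.89, -4.52 and -4.98 in KC. It was well above background on 2 KHT arrays, 1 KWT array and all 3 KC arrays, so it entered the fit through the KC arrays alone and its lower values are near background. The differences were -0.68 ± 0.26 for KHT and -0.94 ± 0.26 for KWT. Of the 3 other Muc4 probes, 1 was well above background on a single array (KWT 3, at -5.08) and the others on none. That probe averaged -7.02 ± 1.68 in KWT and -7.74 ± 0.28 in KC (SD, n = 3 each), and the groups overlapped.

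Muc1, the transmembrane mucin of most simple epithelia, was at a like level in the 3 groups. It read 3.77, 3.82 and 3.78 in KHT and 3.95, 3.80 and 4.01 in KWT, against 3.86, 3.86 and 3.54 in KC. The difference was 0.04 ± 0.10 in KHT (95% interval -0.19 to 0.26) and 0.17 ± 0.10 in KWT (95% interval -0.06 to 0.39).

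Muc13, a transmembrane mucin of the gastrointestinal tract, averaged -4.93 ± 0.44 in KHT, -4.80 ± 0.21 in KWT and -4.85 ± 0.42 in KC (SD, n = 3 each). Muc20, a transmembrane mucin first described in human kidney, averaged -2.59 ± 0.12 in KHT, -2.53 ± 0.18 in KWT and -2.74 ± 0.27 in KC. For both, the 95% intervals of the differences in KHT and KWT against KC included 0. Muc3, an intestinal transmembrane mucin, had 2 probes, and neither was well above background on any of the 15 arrays, with readings of -8.27 to -6.31. It was therefore left out of every fit.

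As a description, 3 of the 8 mucin genes in the fit (Muc2, Muc5ac and Muc5b) lay below an adjusted p of 0.05 as lower in KHT against KC and the same 3 in KWT against KC, by limma with Benjamini-Hochberg adjustment over 19683 genes. In the background 2.5% of genes passed as lower in KHT and 3.16% in KWT, and 5.47% and 5.96% passed in either direction. Both comparisons chose the mucin genes and share the KC arrays, so these counts are no test of them and nothing is read from them. With the replicate number as a block Muc4 was counted as well in both, where 2.04% of genes in KHT and 2.74% in KWT passed as lower. The median difference of the 8 was -0.38 in KHT and -0.33 in KWT, against 0.01 and 0.03 over all genes tested.

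**Figure D2:**
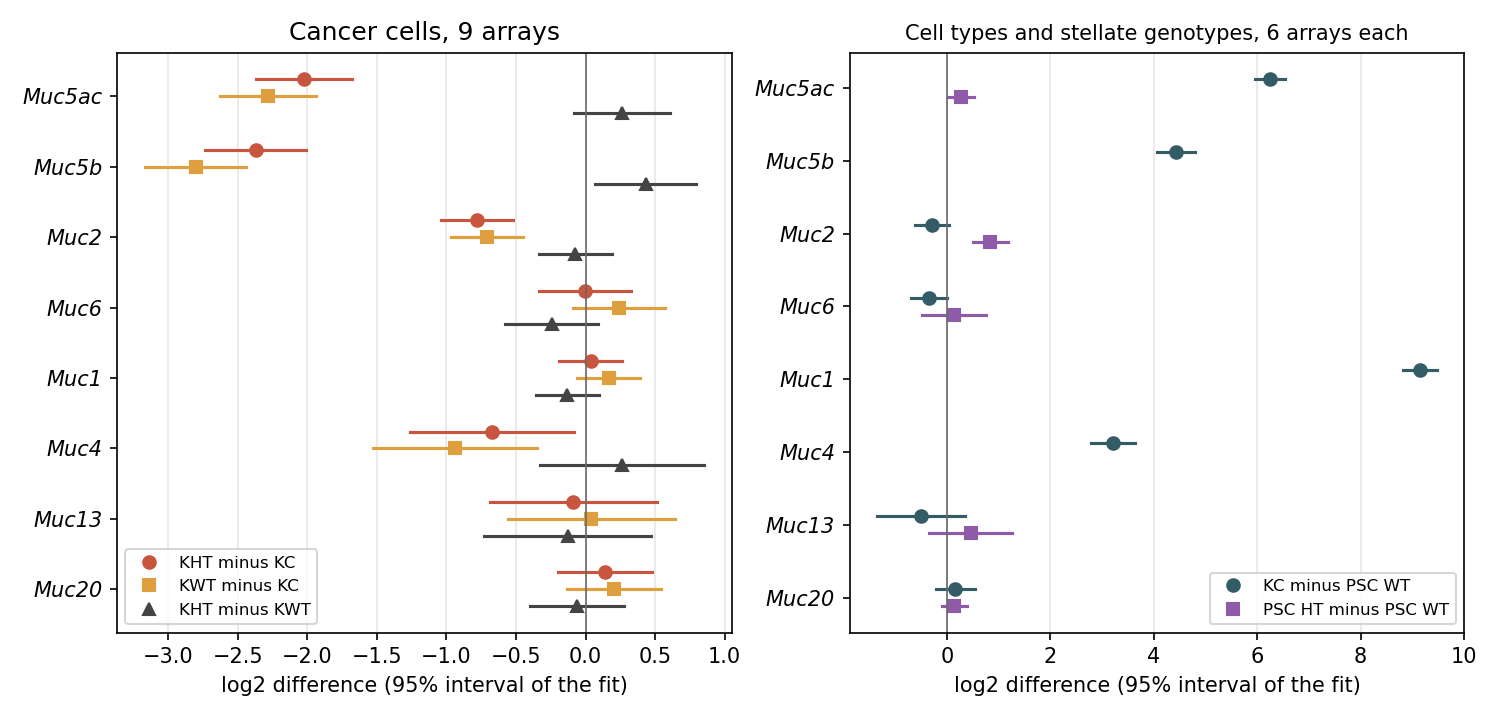
Log2 differences with 95% intervals for each tested mucin gene, from the fit of the 9 cancer cell arrays (left) and the 2 fits of 6 arrays (right). On the left the KHT and KWT values against KC lie at -2.80 to -2.02 for Muc5b and Muc5ac, and on the right Muc1 lies at 9.14 for KC against PSC WT.

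KHT against KWT asked whether cancer cells differed between the media of the 2 stellate cell genotypes. None of the 8 mucin genes passed the test, and none of 19683 genes did (0%). Muc5b read -3.70 to -3.58 in KHT and -4.43 to -3.83 in KWT, a difference of 0.43 ± 0.16. Its 95% interval, which is not adjusted for the number of genes, was 0.07 to 0.80, and its adjusted p was 0.984 by limma. The Muc5b value was 0.32 within slide 1 and 0.48 within slide 2. Muc5ac differed by 0.26 ± 0.15 (95% interval -0.08 to 0.61, adjusted p = 0.984 by limma), and its groups overlapped. It differed by -0.02 within slide 1 and by 0.52 within slide 2. For the other 6 the differences ran from -0.24 for Muc6 to 0.26 for Muc4, and each 95% interval included 0. The median over the 8 was -0.07, against -0.0048 over all genes tested.

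Muc5b and Muc5ac varied together over the 9 cancer cell arrays, with a Pearson r of 0.993. With each array set against its own group mean, r was 0.733. Muc2 had r = 0.937 with Muc5ac and 0.916 with Muc5b, and 0.400 and 0.106 after subtracting group means. Muc4 had r = 0.852 with Muc5b, and 0.803 after subtracting group means. Such values were not limited to genes lower in stellate cell medium. After subtracting group means r was 0.768 for Muc6 and Muc13, 0.714 for Muc6 and Muc20 and 0.490 for Muc13 and Muc20. The r before that step includes the differences from KC by which the genes were chosen. These arrays share a scaling and 2 slides, and no test is given.

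Among 13400 other named genes of that fit, the 5 whose levels were most like those of Muc5b were Adamts15 (r = 0.995), Fer1l4 (0.993), Fam120c (0.992), Klf4 (0.991) and Glcci1 (0.990). For Muc5ac they were Fabp2 (0.994), Hr (0.994), Adamts15 (0.992), Glcci1 (0.990) and Slurp1 (0.989). Adamts15, a secreted metalloprotease of the ADAMTS family, averaged -3.24 in KHT and -3.58 in KWT, against -1.57 in KC. Fabp2, the intestinal fatty acid binding protein, averaged -1.92 in KHT and -2.04 in KWT, against -1.05 in KC. A high r says only that a gene followed the same array order, since Fam120c differed by -0.27 ± 0.06 in KHT and -0.31 ± 0.06 in KWT.

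Genes that package mucus or mark mucous cells were looked at next, from lists written from general knowledge after earlier results of these arrays were known. Of 22 genes of the mucus granule and of secretory cells, 14 could be tested. Of these, 5 fell in KHT and 6 fell in KWT against KC, where 2.5% and 3.16% of all genes did, and 0 rose. Their median difference was -0.41 in KHT and -0.71 in KWT, against 0.01 and 0.03 over all genes.

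Clca1, a metalloprotease secreted into mucus by goblet cells, averaged 1.25 ± 0.13 in KHT and 0.74 ± 0.13 in KWT, against 2.60 ± 0.47 in KC (log2 levels, SD, n = 3 each). Gkn2, a gastrokine of gastric surface mucous cells, averaged -1.72 ± 0.14 in KHT and -1.88 ± 0.14 in KWT, against -0.08 ± 0.22 in KC. Tff2, a trefoil peptide secreted with gastric gland mucin, averaged 3.29 ± 0.15 in KHT and 2.80 ± 0.15 in KWT, against 4.31 ± 0.17 in KC. For each of the 3 genes the arrays in stellate cell medium lay below all controls. The differences against KC were -1.35 ± 0.21 in KHT and -1.87 ± 0.21 in KWT for Clca1. They were -1.64 ± 0.13 in KHT and -1.80 ± 0.13 in KWT for Gkn2, and -1.01 ± 0.12 in KHT and -1.51 ± 0.12 in KWT for Tff2. Within slides 1 and 2 Clca1 differed by -1.14 and -1.75 in KHT and by -1.56 and -2.30 in KWT, and Gkn2 by -1.60 and -1.73 in KHT and by -1.81 and -1.99 in KWT. Tff1, a trefoil peptide of gastric surface cells, and Ern2, an endoplasmic reticulum stress sensor of mucous epithelia, also passed as lower in both. Gkn3, another gastrokine, passed in KWT (-1.05 ± 0.22) and had a value of -0.73 ± 0.22 in KHT, and no gene passed KHT against KWT.

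Of 24 transcription factors of mucous epithelium, 20 could be tested, and 5 fell in both KHT and KWT against KC, where 2.5% of all genes fell in KHT and 3.16% in KWT. They were Klf4, Spdef, Elf3, Ehf and Gata6, and 0 rose. Klf4, a zinc finger factor of differentiated surface epithelium, averaged 3.89 ± 0.09 in KHT and 3.71 ± 0.10 in KWT, against 5.15 ± 0.06 in KC (log2 levels, SD, n = 3 each), a difference of -1.26 ± 0.08 in KHT and -1.44 ± 0.08 in KWT. Within slides 1 and 2 it differed by -1.24 and -1.30 in KHT and by -1.37 and -1.43 in KWT. Spdef, an ETS factor needed for goblet cell maturation, differed by -0.84 ± 0.14 in KHT and -1.01 ± 0.14 in KWT. Elf3, another epithelial ETS factor, differed by -0.44 ± 0.08 in KHT and -0.55 ± 0.08 in KWT. The list's median was -0.13 in KHT and -0.17 in KWT.

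**Figure D3:**
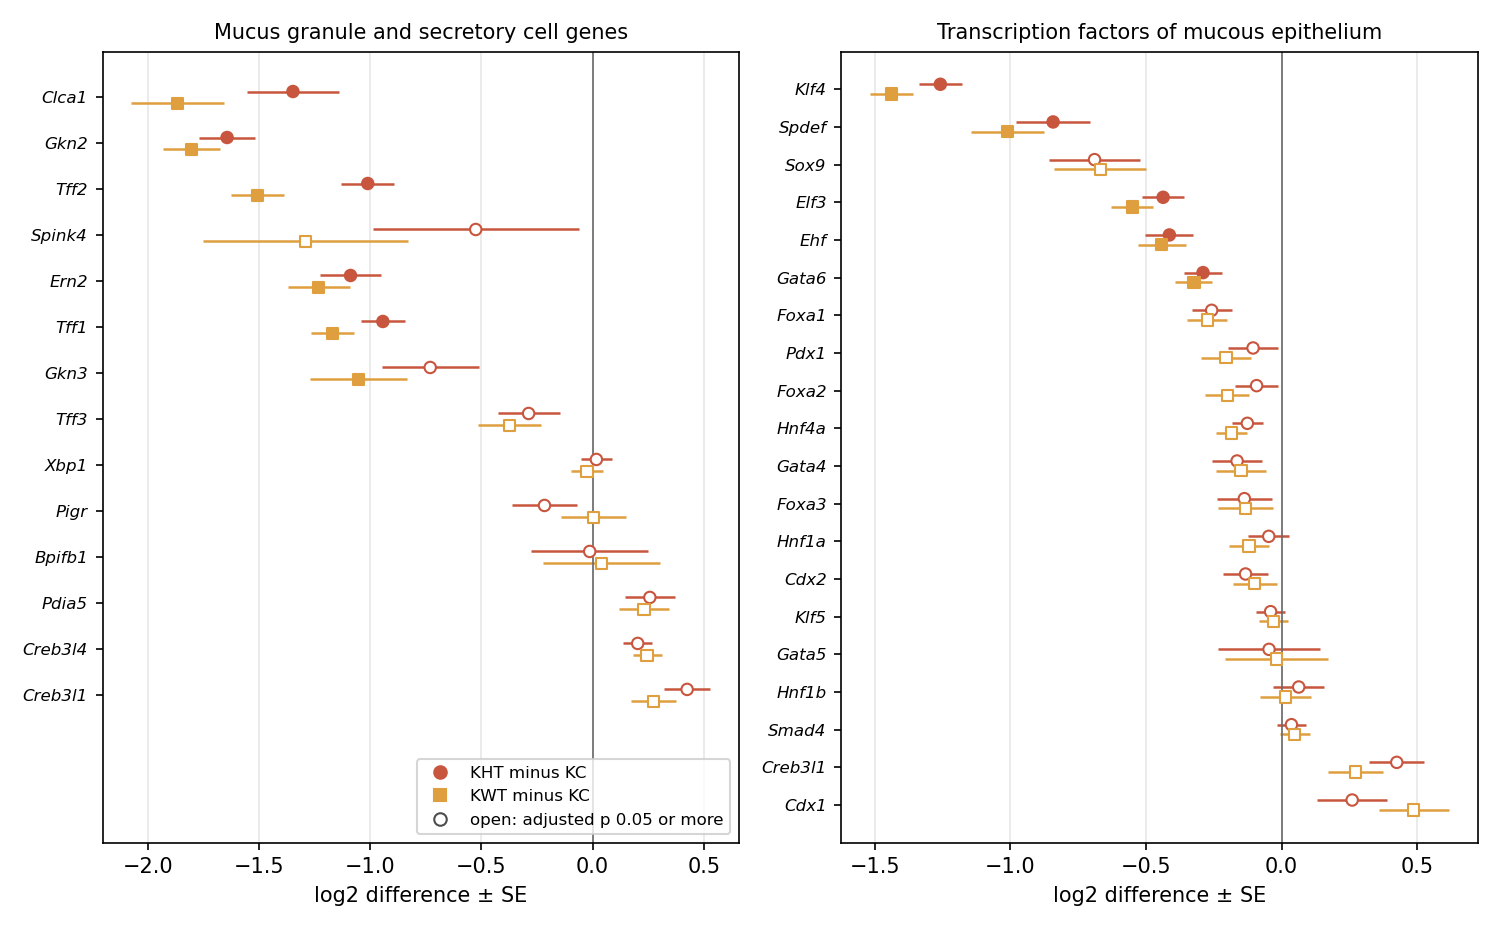
Log2 differences ± SE against KC for the tested genes of the mucus granule and secretory cell list (left) and of the transcription factor list (right), KHT as circles and KWT as squares. Filled symbols passed an adjusted p of 0.05, and those furthest left are Clca1, Gkn2 and Tff2 in the left panel and Klf4 and Spdef in the right panel. Creb3l1 stands in both lists.

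Of 32 genes for enzymes that build mucin O-glycans, 25 could be tested. In KHT 2 rose and 1 fell, where 2.97% of all genes rose and 2.5% fell. In KWT 1 rose and 0 fell, where 2.8% rose and 3.16% fell. Galnt1, one of the transferases that attach the first sugar, averaged 2.53 ± 0.09 in KHT and 2.52 ± 0.04 in KWT, against 2.00 ± 0.09 in KC, a difference of 0.53 ± 0.07 in KHT and 0.52 ± 0.07 in KWT. Galnt3, a related transferase, rose by 0.53 ± 0.09 and Fut2, a fucosyltransferase, fell by 0.93 ± 0.13 on the log2 scale in KHT. Both are named here because of their values. Of 12 other mucin genes 7 had a probe and 3 could be tested (Muc19, Mcam and Cd164), and none passed in either comparison. Mucl3, a mucin-like gene that no list held and that is named after its values were seen, was lower by 0.60 ± 0.07 in KHT and by 0.50 ± 0.07 in KWT than in KC on the log2 scale. Mucl3 was lower as well in PSC HT than in PSC WT (-1.13 ± 0.15, adjusted p = 0.00858 by limma). In KC against PSC WT it differed by 3.06 ± 0.13 (adjusted p = 1.6e-06 by limma).

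The epithelial markers as a list were at like levels, with a median over the 12 of 2.70 to 2.81 on the KHT arrays, 2.61 to 2.73 on the KWT arrays and 2.55 to 2.71 on the KC arrays. Single markers moved in both directions under that median. Cldn4 read 0.36 to 0.56 in KHT and 0.42 to 0.64 in KWT, against -0.73 to -0.26 in KC. Elf3 read -0.09 to 0.13 in KHT and -0.15 to -0.06 in KWT, against 0.37 to 0.55 in KC. The median of the 12 stellate and fibroblast markers was -6.92 to -6.06 in KHT, -6.38 to -6.04 in KWT and -6.75 to -6.02 in KC.

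Which mucin genes distinguish the cancer cells from stellate cells was read from KC against PSC WT. Muc1 read 3.54 to 3.86 in KC, against -5.52 to -5.21 in PSC WT, where 2 of 3 arrays were well above background. The log2 difference was 9.14 ± 0.13, or 566-fold higher (adjusted p = 1.91e-08 by limma). Muc5ac read 1.51 to 1.90 in KC, against -4.61 to -4.50 in PSC WT, a difference of 6.25 ± 0.12 or 76.2-fold (adjusted p = 4.72e-08 by limma). Muc5b read -1.50 to -1.12 in KC, against -5.85 to -5.44 in PSC WT with 1 of 3 arrays well above background, a difference of 4.43 ± 0.16 (adjusted p = 6.86e-07 by limma). Within slides 1 and 2 these differences were 9.22 and 9.19 for Muc1, 6.25 and 6.25 for Muc5ac and 4.51 and 4.44 for Muc5b. The sizes depended on the background correction, since with normexp they were 7.28 for Muc1, 4.90 for Muc5ac and 2.56 for Muc5b, and all 3 still passed. With the mean of its probes Muc5b differed by 3.66. In stellate cell medium Muc5b and Muc5ac in the cancer cells stayed above these stellate cell readings on all 6 arrays, on the probes that stand for them.

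Muc4 was at least 1.89-fold higher in KC than in PSC WT, where no array was well above background (adjusted p = 5.96e-06 by limma, with measured means of -4.80 in KC and -8.02 in PSC WT). Its log2 difference was 0.66 with normexp and 0.82 with the mean of its probes, both under that bound, and it passed in both. Muc2 (-0.29 ± 0.14), Muc6 (-0.35 ± 0.14), Muc13 (-0.50 ± 0.35) and Muc20 (0.16 ± 0.16) did not pass. Muc20 passed as higher with quantile scaling (0.44, adjusted p = 0.0485 by limma) and with scaling on the median (0.55, 0.0184), and Muc2 as lower with the mean of its probes (-0.42, 0.0466). The sign for Muc2 and Muc6 turned when arrays were scaled on the median or by quantiles. So 4 of 8 passed as higher, where 35.2% of 21927 genes passed as higher, 36.1% as lower and 71.4% in either direction. Muc1, Muc4 and Muc5b entered the test through the KC arrays alone, so that they differ follows in part from the filter. With scaling on the median, 66.2% of all calls were higher, against 49.4% in the values used here, and the median difference of all genes was 0.35, against -0.04. The KC arrays are also those against which the mucin genes were chosen.

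Between the stellate cell genotypes, Muc2 was the one mucin gene that passed. It read -2.98, -2.73 and -2.64 in PSC HT, against -3.87, -3.45 and -3.55 in PSC WT, and each PSC HT array lay above each PSC WT array. The log2 difference was 0.84 ± 0.14, or 1.79-fold higher (adjusted p = 0.0213 by limma). It was 1.06 within slide 1 and 0.77 within slide 2, and 0.91 with slide as a block (adjusted p = 0.0234 by limma). Of the 5 mucin genes tested 1 passed as higher, where 2.95% of 20886 genes passed as higher, 4.78% as lower and 7.73% in either direction. The call did not hold without PSC HT 3, the array with the Cdh1 signal (0.77, adjusted p = 0.0618 by limma), nor without PSC HT 2 (0.81, 0.0671) or PSC WT 3 (0.88, 0.0734). Nor did it hold with the mean of both Muc2 probes (0.35, adjusted p = 0.400 by limma) or with no filter on dim probes (0.84, 0.104). It rests on 1 dim probe, and the other Muc2 probe was not well above background.

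Markers of other cells differed between the genotypes in the same arrays. The 12 macrophage markers were all well above background on the 6 arrays, with a summed log2 level of 6.69 to 7.65 in PSC HT, against 5.76 to 6.10 in PSC WT. Ptprc (1.56 to 1.95 in PSC HT, 1.63 to 2.06 in PSC WT) and Itgam (5.10 to 5.17 and 5.11 to 5.24) overlapped between the genotypes. On every cancer cell array 7 of these 12 markers were well above background as well. The 8 mesothelial markers were all well above background on the 6 PSC arrays, with a summed level of 3.49 to 4.28 in PSC HT, against 5.33 to 5.65 in PSC WT. Msln read 0.2 to 2.6 in PSC HT and 2.2 to 2.9 in PSC WT, so its groups overlapped. Those of Krt19 did too, with 0.95 on PSC HT 3 against -0.95 to -0.68 in PSC WT. The part of the macrophage and mesothelial markers in the Muc2 difference was not tested.

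Muc5ac averaged -4.28 ± 0.17 in PSC HT and -4.55 ± 0.05 in PSC WT (SD, n = 3 each). The groups did not overlap, but the difference of 0.27 ± 0.10 did not pass (adjusted p = 0.185 by limma). Muc6 differed by 0.14 ± 0.26, Muc13 by 0.46 ± 0.33 and Muc20 by 0.14 ± 0.10, with overlapping groups. Muc1, Muc4 and Muc5b were not tested between the genotypes. Muc1 read -5.72, -5.37 and -2.77 in PSC HT, the last on PSC HT 3, and -5.52, -5.43 and -5.21 in PSC WT. That array, PSC HT 3, was the one with the Cdh1 signal. The summed level of the 12 epithelial markers was 4.55 on PSC HT 3, against 2.69 and 2.84 on the other PSC HT arrays and 3.79 to 3.89 in PSC WT. Their part in the Muc1 reading was not tested.

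**Figure D4:**
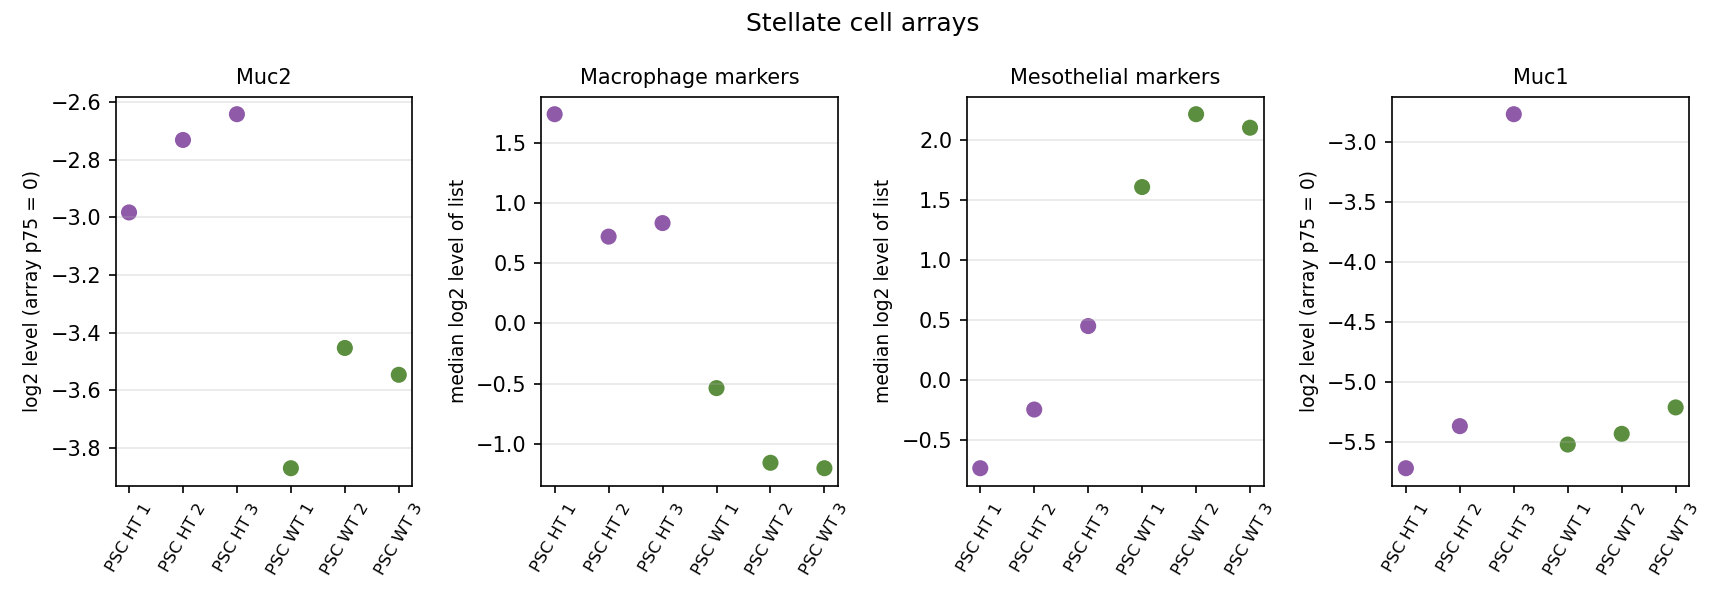
Log2 level (array 75th percentile = 0) of Muc2 and Muc1 and the median log2 level of the macrophage and mesothelial marker lists on each stellate cell array, PSC HT in purple and PSC WT in green. Muc2 and the macrophage median are higher and the mesothelial median lower on every PSC HT array, and Muc1 stands apart at -2.77 on PSC HT 3.

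Over the 5 groups the mucin genes had different orders of level. Muc1 was high in the 3 cancer cell groups, which overlapped, and low in both stellate cell groups. Muc5ac and Muc5b were highest in KC, lower in KHT and KWT, whose difference did not pass, and lowest in both stellate cell groups. For Muc5b that order rests on the brighter probe, as the dimmer one was well above background on the KC arrays only. No fit compared KHT or KWT with the stellate cells. Muc2 had its highest readings in PSC HT, then PSC WT and KC, which overlapped, and its lowest in KHT and KWT, which overlapped too. Muc6 and Muc20 were well above background on all 15 arrays and Muc13 on 14, and none of their differences passed in the values used here.

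The promoters of Muc1 and Muc2 are shown because these genes had different values in the same cells, Muc1 at a like level and Muc2 lower in stellate cell medium. They are the 250 bases before the start site, 5′ to 3′ on the plus strand, from RefSeq on GRCm38.p6, at chr3:89228806-89229055 for Muc1 and chr7:141690090-141690339 for Muc2. Start sites were matched for 7 of the 9 genes, Muc13 with 2. Capitals mark matches on either strand to TATAAA (a core promoter element), TGTTTAC (forkhead), GGGCGG (GC box), TGANTCA (AP-1) and CACCTG (E-box), none of which overlapped another.
Muc1: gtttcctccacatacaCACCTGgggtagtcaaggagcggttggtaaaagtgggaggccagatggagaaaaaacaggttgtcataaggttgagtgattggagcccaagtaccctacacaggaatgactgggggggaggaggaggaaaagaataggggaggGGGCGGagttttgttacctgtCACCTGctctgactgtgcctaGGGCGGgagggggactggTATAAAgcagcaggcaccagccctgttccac
Muc2: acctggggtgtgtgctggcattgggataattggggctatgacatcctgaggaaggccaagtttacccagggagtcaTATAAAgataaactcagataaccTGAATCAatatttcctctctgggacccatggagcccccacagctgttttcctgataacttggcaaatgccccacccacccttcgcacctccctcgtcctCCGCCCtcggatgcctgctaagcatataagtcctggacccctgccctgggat
The Muc1 window held 5 matches, with TATAAA starting 31 bases before the start site, GGGCGG 91 and 49 bases before and CACCTG 234 and 70 bases before. The Muc2 window held 3, with TATAAA 174, TGANTCA 151 and the reverse complement of GGGCGG 52 bases before. Of 32851 promoter windows of the same length, 12.4% held TATAAA, 32.7% GGGCGG, 17.2% CACCTG, 6.75% TGANTCA and 3.17% TGTTTAC. Among the other mucin promoters, Muc4 held TATAAA 36 bases before its start, Muc13 held TGANTCA in both windows, Muc20 held CACCTG and the reverse complement of TGTTTAC, and Muc3 and Muc6 held none. A match is a description of the letters only.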

How the data were processed

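The deposited scanner files hold one-channel Cy3 intensity, and per the file headers Agilent Feature Extraction 10.7.3.1 subtracted and detrended the background and placed probes on mm9. How the log2 values of the deposited series matrix were prepared is not given in the sources used here, so they served as an alternative within a cell type. Per the labels' protocols RNA was labelled through double-stranded cDNA, and whether strand was kept was not examined.

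Log2 processed signal was centred on the 75th percentile of its array, leaving out control and outlier spots, and spots of 1 probe were averaged. Names were updated through RefSeq, 32994 probes through their accession, 10224 through the symbol and 520 through a synonym, with 12867 keeping the file's name. The R package limma (3.58.1, in R 4.3.3 with version 1.17.8 of data.table) gave the differences, in 1 fit of the 9 cancer cell arrays, 1 of the 6 PSC arrays and 1 of KC with PSC WT, with Benjamini-Hochberg adjustment and an adjusted p of 0.05. The procedure was tested on simulated data. Sequences and plots were handled in Python 3.11.15 with matplotlib 3.10.9, pandas 2.3.3 and numpy 2.4.6. The number of arrays, 3 per group, limits precision.

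The mucin genes and the lists were chosen with earlier results of these data known. Of each list up to 3 rises and 3 falls past the threshold in KWT against KC are named, by size, and up to 2 each between the genotypes, as are the 5 genes most like Muc5b and Muc5ac. Replicates shared a number across groups. Deviations of same-numbered arrays from their group means correlated at 0.206, 0.252 and 0.221 between KWT and KC. Differently numbered arrays reached like values, at 0.224 (KC 1 with KWT 2), 0.210 (KC 2 with KWT 3) and 0.222 (KC 3 with KWT 1). The remaining pairs of KWT and KC arrays lay at -0.424, -0.454 and -0.456. Whether the numbers pair arrays was thus not settled. The fits reported held no replicate block, which served as an alternative. Same-numbered arrays correlated at -0.143, 0.380 and 0.104 between KHT and KC, and at 0.087, 0.248 and -0.250 between KHT and KWT. Between the genotypes, where the arrays share only a number, they did so at 0.197, 0.028 and -0.106. Alternatives were normexp background correction with an offset of 50, quantile and median scaling, other filters, the mean of probes, slide or replicate blocks, another variance model, fewer arrays and a threshold of 0.01.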

Additional observations from a re-analysis of the deposited data

How the results depend on the processing

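Muc2, Muc5ac and Muc5b stayed lower in KHT and in KWT against KC under every alternative run, and Muc5ac and Muc5b kept their side of the threshold in each that gave a test. These comparisons chose the genes, so their counts are descriptions. Muc2 did not keep it with the mean of all its probes (-0.33 in KHT, -0.17 in KWT) or the series matrix (-0.34, -0.32), where Muc4 was counted in KWT (-0.31, adjusted p = 0.0439 by limma). With the replicate number as a block the count was 4 in both comparisons, Muc4 joining at -0.68 and -0.94, and the block changed no other call of a mucin gene in the 5 comparisons. The count was 3 whichever array was left out of these fits, and 0 for KHT against KWT. For PSC HT against PSC WT the count was 0 in place of 1 with no filter on dim probes, with the mean of all probes and at a threshold of 0.01, and 0 to 1 with 1 array left out. For KC against PSC WT it was 1 (Muc5ac) where each array had to be well above background, with 4 genes tested, 5 with quantile or median scaling, where Muc20 passed, or the mean of all probes, where Muc2 did, and 4 to 6 with 1 array left out, when Muc2 and Muc13 passed without PSC WT 1 and Muc6 without KC 2. The cause of these shifts was not tested. Signs turned only in values that did not pass. With the mean of all probes these were Muc4 (0.105 in KWT and 0.029 in KHT against KC, -0.077 in KHT against KWT), Muc13 (-0.001, KWT against KC) and Muc20 (0.008 in KHT against KWT, -0.081 in KC against PSC WT). With slide as a block they were Muc13 (-0.142 in KWT against KC, 0.055 in KHT against KWT) and Muc20 (0.025, KHT against KWT). With quantile and median scaling they were Muc6 (0.062 and 0.054 in KHT against KC, 0.054 and 0.037 in KC against PSC WT) and Muc2 (0.048 and 0.093, KC against PSC WT), and with the series matrix Muc6 (0.02, KHT against KC). With 1 array left out, signs turned for Muc13 (-0.188 to 0.225 in KWT against KC, -0.34 to 0.10 in KHT against KC, -0.38 to 0.003 in KHT against KWT), Muc6 (-0.125 to 0.151 in KHT against KC, -0.15 to 0.31 between the genotypes), Muc1 (-0.071 to 0.09, KHT against KC), and in KHT against KWT Muc2 (-0.16 to 0.015), Muc20 (-0.146 to 0.031) and Muc4 (-0.016 to 0.453). The count of genes past the threshold ran from 467 to 1495 in KWT against KC, 327 to 1337 in KHT against KC, 0 to 1 in KHT against KWT, 401 to 2217 between the genotypes and 12605 to 15996 in KC against PSC WT, against 1173, 1077, 0, 1615 and 15651 in the values reported. Signal over background limits Muc3, Muc4 and the second probes of Muc2, Muc5b, Muc13 and Muc20.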

Other observations

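Single genes of the mucus-related lists differed between the stellate cell genotypes. Of 23 O-glycan enzymes tested there, 3 rose and 1 fell in PSC HT, where 2.95% of all genes rose and 4.78% fell. Galnt6, a transferase that starts O-glycans, averaged -1.16 ± 1.08 in PSC HT and -3.71 ± 0.59 in PSC WT (log2 levels, SD, n = 3 each), a difference of 2.55 ± 0.57 (adjusted p = 0.0469 by limma, and 0.0663 with slide as a block). B3gnt3, which extends core O-glycans, was higher by 1.77 ± 0.19, with 1 of 3 PSC WT arrays well above background. It entered the fit through the PSC HT arrays alone, so that it differs and is counted follows in part from the filter. Galnt16 also rose. Gcnt1, the core branching enzyme, fell by 1.34 ± 0.18 on the log2 scale. Of 8 secretory cell genes tested 2 rose, Galnt6 again and Creb3l4, a membrane-bound transcription factor, which was higher by 0.70 ± 0.07.

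Of 10 transcription factors of the mucous epithelium list tested between the genotypes, 2 fell in PSC HT, where 4.78% of all genes did. Gata4 averaged -4.61 ± 0.32 in PSC HT and -1.77 ± 0.04 in PSC WT, and Gata6 averaged 1.13 ± 0.11 in PSC HT and 2.71 ± 0.04 in PSC WT. Both are zinc finger factors of endoderm and heart. Of 4 other mucin genes tested 1 fell, against the same 4.78% of all genes. Emcn, the sialomucin endomucin of endothelial cells, fell to -4.61 ± 0.13 in PSC HT, against -1.67 ± 0.26 in PSC WT. The summed level of the 7 endothelial markers, of which Emcn is one, was -1.89 to -1.62 in PSC HT and 0.22 to 0.40 in PSC WT. Without PSC HT 3, the array with the Cdh1 signal, Galnt6 no longer passed (2.79 ± 0.63, adjusted p = 0.0768 by limma), while B3gnt3, Galnt16, Gcnt1, Creb3l4, Gata4, Gata6 and Emcn still did. Foxa2, a forkhead factor of endoderm, then passed as lower (-2.32 ± 0.08, adjusted p = 0.00136 by limma), where with all 6 arrays it had not (-1.79, adjusted p = 0.0577 by limma). In that fit 4.95% of 20886 genes passed in either direction. This alternative for the lists was chosen after seeing the data. The macrophage and mesothelial lists differed in the same arrays, and their part in these differences was not tested.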
